A study of Mus musculus with 35 samples.

Results

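Heparan sulfate proteoglycans are core proteins that carry long sulfated sugar chains, and the genes for these core proteins and for the enzymes that build, sulfate and trim the chains were followed while mouse ES cells were driven towards primitive endoderm (PrE) by GATA6. The 39 genes were listed by name, with no threshold on their values, and comprised 11 core proteins and 28 enzymes. All 39 were found among the 44853 genes of the induction table. Of these, 22 were also among the 6275 genes of the siRNA table, which holds only genes that the authors had called responsive to GATA6, so the other 17 had no siRNA value.

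Heparan sulfate is assembled in the Golgi: a short sugar linker is built on serines of the core protein, the chain is extended by the Ext proteins, and sulfotransferases then modify it in patches. Syndecans span the plasma membrane, glypicans are held to its outer face by a lipid anchor, and serglycin is packed inside secretory granules, where its chains are heparin or chondroitin sulfate depending on the cell. The chains bind growth factors such as FGFs, which need heparan sulfate to engage their receptors, and FGF signalling is required for PrE formation in the mouse blastocyst. Cells derived from the PrE lay down a thick basement membrane rich in such proteoglycans.

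Induced cells were KH2 ES cells of mixed C57BL/6 and 129/Sv background that carried a Gata6 transgene under doxycycline (Dox) control. They were left untreated (0 h) or given 1 µg/mL Dox for 16, 24, 48, 72, 96 or 168 h, with 3 libraries at each time. The reference was 2 libraries of the wild-type XEN line X10, of CD1 background, grown without Dox or LIF. XEN cells are stem cells of the extraembryonic endoderm, and line, background and medium could not be told apart from cell state in comparisons with them. For the siRNA experiment, the Dox-inducible clone G6.3 received a control siRNA (siCTL) or an siRNA against Oct4 (siOct4) together with 1 µg/mL Dox and was collected at 48 h, with 6 libraries of each. This experiment thus rested on 1 clone, and no clone is named for the induction series. ES cells were kept with LIF, and both ES and XEN cells were grown on mouse embryonic fibroblast feeders, which were adsorbed to plastic before lysis. Values were TPM, a level scaled by library total and transcript length that can be compared between genes, and the read depth behind them was unknown. In bulk RNA, fewer cells of a type and less RNA per cell cannot be told apart.

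The labels were checked against known markers. Mean Gata6 stood at 0.264 TPM before Dox, reached 134 TPM by 16 h and 344 TPM by 168 h, and was 346 TPM in XEN cells. In induced cells this level includes transcripts of the Dox-driven transgene, so it checks the Dox treatment and does not give endogenous Gata6. All 9 PrE markers tested, Gata6 among them, were higher at 168 h, and all 5 ES cell markers were lower. Oct4 (Pou5f1) fell from a mean of 1654 TPM at 0 h to 63.4 TPM at 168 h, where library 3 still held 112 TPM against 39.1 TPM in both others. Feeder RNA was followed by the summed TPM of 11 fibroblast markers, which ranged from 37.8 to 115 at 0 h, from 55.1 to 150.0 at 16 to 96 h, from 131 to 285 at 168 h and from 97.5 to 102 in XEN cells. Library 3 had the highest sum of its group at 0, 16, 24, 48, 72 and 168 h, but not at 96 h. At 168 h 6 of the 10 tested markers were called higher than at 0 h (Col1a1, Col1a2, Col3a1, Dcn, Lum and Postn). Fap, the marker too low to be tested, was at 0 to 0.122 TPM at 0 h and at 0.112 to 0.578 TPM at 168 h. In the siRNA experiment the 5 fibroblast markers listed summed to between 26.1 and 210.1 TPM in siCTL and between 27.8 and 213 TPM in siOct4 libraries. Their part in the results was not tested, except in the siRNA values given with the fibroblast score in the model. Leaving out library 3 at 168 h drops the highest sum, but libraries 1 and 2 there summed to 134 and 131 TPM. At 0 h libraries 1 and 2 summed to 49.2 and 37.8 TPM, so values without library 3 do not test feeder RNA.

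Most of the changes were increases, and they accumulated over the week of Dox. A gene was called when its log2 difference exceeded 1 at a Benjamini-Hochberg adjusted p under 0.05 (limma), and 32 of the 39 genes reached the mean of 1 TPM in a group that was needed for testing. At 16 h, 2 of these 32 were higher, where 2.77% of all 15057 genes tested were called, 1.97% higher and 0.804% lower. At 24 h 3 were higher (5.68% of all genes called, 3.24% higher and 2.44% lower). At 48 h 9 were higher and 1 lower (16.4%, of which 9.14% higher and 7.26% lower). The counts were 12 higher and 1 lower at 72 h (26.2%, of which 14.7% higher and 11.5% lower), and 17 higher and 1 lower at 96 h (29.5%, of which 15.4% higher and 14.1% lower). At 168 h 17 were again higher and 1 lower, which is 56.2% of the 32 genes, beside 39.1% of all genes called in either direction, 22.6% called higher and 16.5% called lower. The median log2 difference at 168 h was 1.10 over the 32 genes and 0.09 over all genes tested. Without library 3 at 168 h, 16 of the members were called, beside 5831 of all genes.

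By time of onset, 3 genes were first called at 16 or 24 h and stayed higher at every later time, namely Sdc4, Srgn and Hs3st1. Another 8 joined at 48 or 72 h (Gpc3, Gpc6, B4galt7, B3gat3, Ext2, Extl2, Ndst2 and Hpse), and 5 at 96 or 168 h (Xylt1, Ext1, Hs6st1, Hs3st3a1 and Sulf2). Extl1 was the 1 gene called lower at the end. Sdc3, Gpc4, Ndst1 and Hs3st3b1 had calls that did not last or were interrupted, 11 genes were not called at any Dox time, and 7 were not tested. These onset classes were not counted over all genes, so whether the timing differs from that of other genes was not tested. The untested genes, Gpc5, Ndst3, Ndst4, Hs6st3, Hs3st2, Hs3st5 and Hs3st6, had group means below 1 TPM throughout, and their highest single value was 1.47 TPM, for Hs3st6 in a 0 h library.

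The 250 bases in front of a RefSeq start (build GRCm38.p6) are shown for the 3 genes that responded first. The Srgn window had less GC than those of Sdc4 and Hs3st1, which were alike in GC. The windows lie on the minus strand at chr10:62527446-62527695 for Srgn, chr2:164443189-164443438 for Sdc4 and chr5:39644632-39644881 for Hs3st1, and the Sdc4 and Hs3st1 windows lie inside longer annotated transcripts of the same genes. Capitals mark TATAAA in Srgn and, in Sdc4, each GGGCGG.
Srgn: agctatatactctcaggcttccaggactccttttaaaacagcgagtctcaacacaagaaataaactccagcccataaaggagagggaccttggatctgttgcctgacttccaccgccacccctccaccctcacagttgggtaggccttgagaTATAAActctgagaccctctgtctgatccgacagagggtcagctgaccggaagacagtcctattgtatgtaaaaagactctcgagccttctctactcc
Sdc4: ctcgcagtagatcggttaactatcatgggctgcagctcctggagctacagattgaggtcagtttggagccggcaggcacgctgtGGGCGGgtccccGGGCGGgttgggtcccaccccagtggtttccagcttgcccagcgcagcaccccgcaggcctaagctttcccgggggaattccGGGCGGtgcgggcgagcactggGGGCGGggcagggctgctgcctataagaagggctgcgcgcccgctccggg
Hs3st1: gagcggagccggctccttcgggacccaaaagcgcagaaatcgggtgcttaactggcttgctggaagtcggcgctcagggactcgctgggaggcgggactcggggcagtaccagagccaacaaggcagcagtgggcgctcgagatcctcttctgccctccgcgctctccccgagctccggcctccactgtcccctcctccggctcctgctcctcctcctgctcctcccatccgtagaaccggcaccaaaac
The Srgn window shown had 49.6% GC and 1 TATAAA, the Sdc4 window had 68% GC and 4 GGGCGG, and the Hs3st1 window had 66% GC and neither motif. The letters GATAA were searched on both strands, where the other strand reads TTATC. So were TATAAA, which reads TTTATA there, and GGGCGG, which the other strand shows as CCGCCC. RefSeq promoter windows were found for 29 of the 39 genes, 34 windows in all. GATAA was in 9 of the 34, none of them of Srgn, Sdc4 or Hs3st1, and in 22.6% of all 32851 windows. TATAAA was in 4 of the 34 and in 12.4% of all windows, and GGGCGG in 19 of the 34 and in 32.7% of all windows. These are matches of letters only. Srgn has a further RefSeq window, at chr10:62507758-62508007, with 42.8% GC and none of the 3 motifs.

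Serglycin (Srgn), best known from the granules of blood cells, went from near absence to the most abundant transcript of the set. It stood at 0.264, 0.294 and 0.0913 TPM in the 3 libraries at 0 h, at 3.69, 1.34 and 3.63 TPM at 16 h and at 39.2, 40.8 and 13.2 TPM at 24 h. By 48 h it had reached 686, 754 and 577 TPM. It was at 1692, 1823 and 1171 TPM at 72 h, at 1586, 1697 and 1923 TPM at 96 h and at 2371, 1959 and 2101 TPM at 168 h. No Dox library overlapped the 0 h libraries at any time. The log2 difference from 0 h was 1.61 ± 0.31 (SE) at 16 h (limma adjusted p = 0.00138), 4.57 ± 0.31 at 24 h and 10.78 ± 0.31 at 168 h (adjusted p = 4.51e-16), the largest increase among the 15057 genes. The 16 h call was lost without replicate 1 (1.47, limma adjusted p = 0.13).

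Between 96 and 168 h Srgn differed by 0.30 ± 0.31 on the log2 scale, which did not pass the test. Its share of the summed TPM of the 11 core proteins rose from a mean of 0.167% at 0 h to 71.1% at 48 h and 78.6% at 168 h, while the sum itself went from 132 to 2725 TPM. Among blood markers, Ptprc had group means no higher than 0.0271 TPM and Hbb-bt was listed at 0 in all induction libraries. Spi1 was at 0.257 TPM at 0 h and 0.119 TPM at 168 h, and Cd34 at 1.71 and 0.332 TPM. Runx1, a transcription factor of blood and of other lineages, was higher under Dox, with a mean of 0.694 TPM at 0 h that had reached 57.1 TPM by 72 h and was 22.3 TPM at the end.

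Among the 4 syndecans, Sdc4, a focal adhesion syndecan, rose within 16 h and stayed high. It was at 43.5, 42.5 and 35.3 TPM at 0 h and at 118, 107 and 108 TPM at 16 h. At 96 h it stood at 149, 163 and 161 TPM, and at 168 h at 248, 256 and 420.4 TPM. Every Dox library was above every 0 h library, and library 3 at 168 h was far above the other two. The log2 difference was 1.44 ± 0.14 at 16 h (limma adjusted p = 7.64e-07) and 2.86 ± 0.14 at 168 h (adjusted p = 9.96e-13), or 2.62 ± 0.10 without library 3. Of its mean change in TPM at 168 h, 26.4% was present at 16 h, against 0.125% for Srgn. Sdc4 made up 56.6% of the summed syndecan TPM at 0 h and 89.4% at 168 h.

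The other syndecans moved less. Sdc3, a syndecan known from the nervous system, was at 4.24, 3.34 and 4.32 TPM at 0 h, at 9.50, 8.95 and 10.1 TPM at 96 h and at 4.68, 3.95 and 5.50 TPM at 168 h. It was thus high at 96 h, without overlap, and it overlapped the 0 h values at 168 h. It was called at 72 h (log2 difference 1.01 ± 0.15) and 96 h (1.08 ± 0.15, limma adjusted p = 2.07e-06), and the 72 h value fell under the minimum without replicate 2 (0.96) or replicate 3 (0.89) and when libraries were rescaled by median-of-ratios size factors (0.94). Sdc1, the main epithelial syndecan, and Sdc2 were not called at any time. Their means ran from 12.7 to 29.4 TPM and from 3.64 to 5.87 TPM across the Dox series.

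Of the 6 glypicans, Gpc3, Gpc4 and Gpc6 were called higher at 168 h, beside 22.6% of all genes. Gpc6 was at 0.762, 0.508 and 0.660 TPM at 0 h, at 13.4, 13.6 and 13.3 TPM at 96 h and at 31.6, 35.4 and 37.7 TPM at 168 h, with no overlap at either time. Its log2 difference at 168 h was 4.45 ± 0.18 (limma adjusted p = 3.4e-14), and the step from 96 to 168 h was 1.31 ± 0.18 (adjusted p = 1e-05). Gpc4 was at 20.1, 19.7 and 41.1 TPM at 0 h and at 104, 101 and 127 TPM at 168 h. The groups did not overlap, but library 3 was well above the other two at 0 h, where its fibroblast marker sum was 115 TPM against 49.2 and 37.8 TPM. At 72 h Gpc4 was at 31.6, 35.3 and 76.8 TPM, with fibroblast sums of 55.1, 64.0 and 150.0 TPM in the same libraries, whose part was not tested. The difference at 168 h was 2.08 ± 0.26 (limma adjusted p = 6.16e-07). The 48 h call of Gpc4 (1.07 ± 0.26) was lost without replicate 1 (limma adjusted p = 0.0867) or replicate 2 (adjusted p = 0.109), and at 72 h the gene was not called (0.77 ± 0.26).

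Gpc3, the glypican lost in an overgrowth syndrome, had its highest mean at 72 h, which rested on libraries 1 and 2. It stood at 18.8, 17.3 and 16.3 TPM at 0 h and at 41.6, 42.2 and 36.9 TPM at 48 h. At 72 h it was at 155, 171 and 42.6 TPM, at 96 h at 68.0, 78.6 and 59.7 TPM, and at 168 h at 81.9, 92.3 and 58.7 TPM. Library 3 was the lowest at each of these times and had no peak at 72 h, when it held the highest fibroblast marker sum, while all libraries remained above those of 0 h. The values at 72 and 168 h were not compared with each other. The log2 difference from 0 h was 2.52 ± 0.33 at 72 h, or 3.11 ± 0.09 in the model without replicate 3, and 2.07 ± 0.33 at 168 h (limma adjusted p = 1.22e-05). At 48 h it was 1.16 ± 0.33 (limma adjusted p = 0.0056), a call lost without replicate 1 (adjusted p = 0.078) or replicate 2 (adjusted p = 0.07). Gpc1 was not called but was lower at the end, at 9.49 TPM (mean) at 0 h and 5.57 TPM at 168 h (log2 difference -0.68). Gpc2 was at 6.15 and 8.75 TPM. Gpc4 and Gpc3 are neighbours on chromosome X, 107.2 kb apart, and Gpc5 and Gpc6 lie 400.1 kb apart on chromosome 14.

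**Figure D1:**
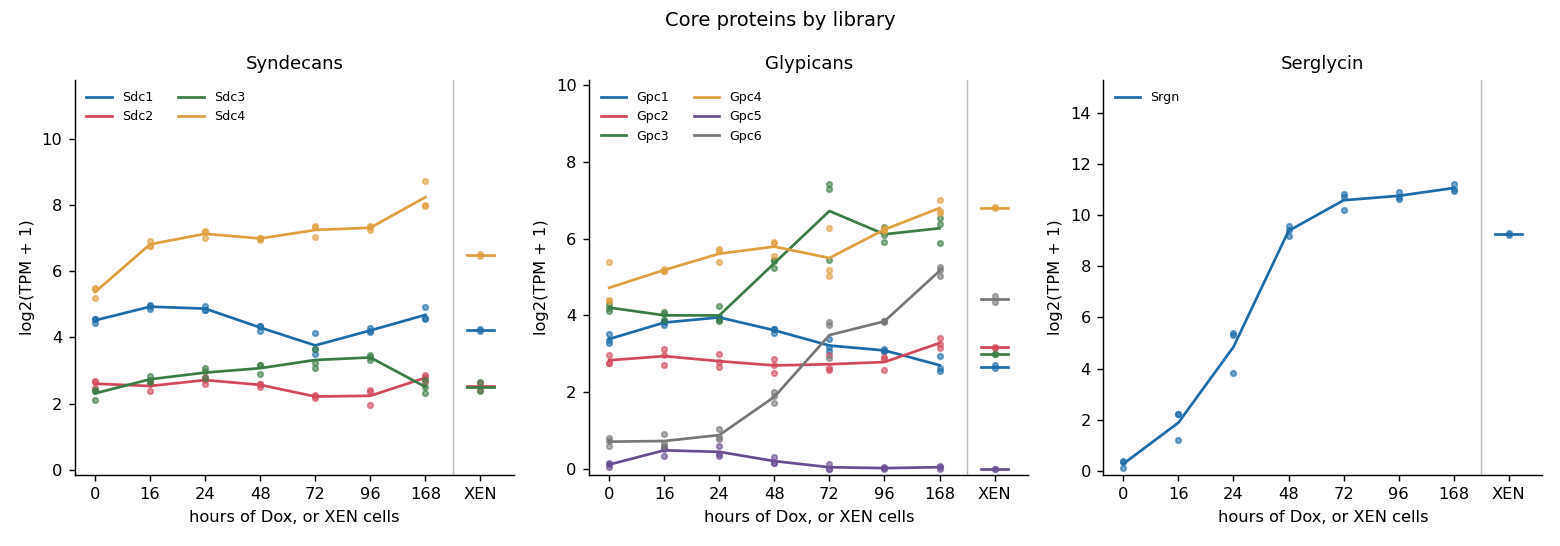
Levels of the core protein genes, as log2(TPM + 1), at 0 to 168 h of Dox and in XEN cells. Points are libraries, lines join group means and short bars are XEN means. Srgn climbs from a mean of 0.217 TPM to 2144 TPM, Sdc4 steps up by 16 h, and Gpc3 falls to a mean of 6.96 TPM in XEN cells.

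The linker is started by the xylosyltransferases Xylt1 and Xylt2 and completed by B4galt7, B3galt6 and B3gat3, and 3 of these 5 genes were called higher at 168 h, or 2 without library 3, beside 22.6% of all genes. B3gat3, which adds the last linker sugar, was at 16.7, 16.7 and 17.6 TPM at 0 h and at 126, 127 and 117 TPM at 168 h. Its log2 difference was 2.79 ± 0.08 (limma adjusted p = 4.96e-16), already 1.37 ± 0.08 at 48 h. B4galt7, the first galactosyltransferase, was at 5.94, 5.07 and 5.21 TPM at 0 h and at 24.7, 24.7 and 22.9 TPM at 168 h (1.97 ± 0.09, adjusted p = 4.82e-13). Neither gene overlapped between the 2 times. Xylt1 was at 1.09, 1.22 and 0.873 TPM at 0 h and at 2.93, 2.89 and 5.09 TPM at 168 h. Its difference of 1.14 ± 0.14 (limma adjusted p = 4.58e-07) fell under the minimum of 1 without library 3 at 168 h (0.93). Xylt2 (mean 12.3 and 17.6 TPM) and B3galt6 (3.48 and 3.44 TPM) were not called at 168 h, and B3galt6 was at 1.71 TPM at 48 h (log2 difference -0.73).

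Both subunits of the heparan sulfate polymerase rose, Ext2 before Ext1. Ext2 was at 23.4, 23.7 and 30.1 TPM at 0 h, at 55.4, 60.1 and 54.3 TPM at 48 h and at 136, 138 and 122 TPM at 168 h. Ext1 was at 15.4, 18.4 and 15.9 TPM at 0 h and, at 48 h, at 19.1, 17.1 and 14.1 TPM. It then reached 38.3, 41.2 and 35.5 TPM at 96 h and 107, 99.2 and 93.5 TPM at 168 h. At 48 h the libraries of Ext1 overlapped those of 0 h and those of Ext2 did not. The log2 difference of Ext2 was 1.11 ± 0.10 at 48 h (limma adjusted p = 1.74e-08) and 2.32 ± 0.10 at 168 h. That of Ext1 was 0.01 ± 0.14 at 48 h (adjusted p = 0.956) and 2.52 ± 0.14 at 168 h (adjusted p = 3.38e-12), with a step of 1.36 ± 0.14 between 96 and 168 h. Of the mean change in TPM at 168 h, 53.6% was present at 96 h for Ext2 and 26.1% for Ext1.

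The Ext-like genes parted. Extl2 was at 4.21, 3.95 and 2.97 TPM at 0 h and at 23.3, 21.3 and 20.4 TPM at 168 h, a log2 difference of 2.27 ± 0.12 (limma adjusted p = 1.25e-12). Extl1 was the 1 member called lower at 168 h, at 2.02, 2.06 and 1.83 TPM at 0 h and 0.305, 0.345 and 0.385 TPM at 168 h. The groups did not overlap for either gene. For Extl1 the difference was -1.14 ± 0.11 on the log2(TPM + 1) scale (limma adjusted p = 2.83e-08), which understates the change of so low a gene. Extl3, which helps to start the chain, was at 10.2 and 18.3 TPM (0.79 ± 0.11) and was not called.

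The N-deacetylase/N-sulfotransferases, which open the chain to all later sulfation, exchanged places. Ndst1 was at 9.90, 10.1 and 7.75 TPM at 0 h, at 3.30, 3.59 and 3.11 TPM at 48 h and at 3.19, 3.22 and 2.92 TPM at 96 h. At 168 h it was back at 7.50, 8.11 and 13.5 TPM, with the highest value in library 3. Ndst2 was at 4.04, 4.62 and 2.70 TPM at 0 h, at 13.2, 17.3 and 12.6 TPM at 96 h and at 20.1, 21.8 and 21.4 TPM at 168 h. Ndst1 libraries of 48 and 96 h all lay below those of 0 h, those of 168 h overlapped them, and Ndst2 libraries of 96 and 168 h all lay above. For Ndst1 the log2 difference from 0 h was -1.24 ± 0.15 at 48 h (limma adjusted p = 9.77e-07), -1.31 ± 0.15 at 96 h and 0.02 ± 0.15 at 168 h (adjusted p = 0.893). From 96 to 168 h it rose by 1.34 ± 0.15 (limma adjusted p = 1.09e-06). For Ndst2 the difference at 168 h was 2.23 ± 0.20 (limma adjusted p = 6.73e-09). Ndst1 supplied 71.3% of the summed TPM of both genes at 0 h, 18.0% at 96 h and 31.0% at 168 h. Glce, the epimerase that acts next, was at 12.5 TPM (mean) at 0 h and 15.3 TPM at 168 h and was not called at any time.

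Of the 2-O- and 6-O-sulfotransferases, Hs6st1 was called at 168 h. It was at 35.0, 35.2 and 32.0 TPM at 0 h and at 77.5, 85.2 and 74.4 TPM at 168 h, without overlap (1.19 ± 0.08, limma adjusted p = 6.4e-11). Hs2st1, the single 2-O-sulfotransferase, was at 11.2 TPM (mean) at 0 h and 22.4 TPM at 168 h, and its log2 difference of 0.94 ± 0.09 stayed just under the minimum. In XEN cells the mean of Hs2st1 was 27.0 TPM, which was called higher than at 0 h (1.20 ± 0.10, limma adjusted p = 2.03e-09). Hs6st2 was at 4.24, 4.25 and 3.15 TPM at 0 h, at 1.16, 1.4 and 3.0 TPM at 72 h and at 7.55, 6.38 and 7.26 TPM at 168 h. It was thus lowest at 72 h, where library 3 was the highest, and highest at 168 h. The log2 difference from 0 h was not called at either time (-0.82 ± 0.20 and 0.73 ± 0.20). The step from 96 to 168 h was 1.02 ± 0.20 (limma adjusted p = 0.000389), or 0.88 without replicate 3. At that step 6 members were called, all higher (Ext1, Gpc6, Hs3st1, Hs3st3a1, Hs6st2 and Ndst1), where 7.67% of all genes were called, 5.23% higher and 2.44% lower. With median-of-ratios rescaling Hs3st1 (0.96) and Hs6st2 (0.90) fell under the minimum and 4 members were called, beside 1102 of all genes.

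The 3-O-sulfotransferases place the rarest modification of the chain, and 1 of them came to dominate. Hs3st1, which makes the antithrombin-binding site of heparin, was at 0.579, 0.365 and 0.0812 TPM at 0 h and at 7.63, 7.97 and 3.42 TPM at 24 h. It stood at 64.5, 73.1 and 48.9 TPM at 48 h and at 217, 221 and 154 TPM at 72 h. It then went on to 265, 272 and 249 TPM at 96 h and 543, 535 and 607 TPM at 168 h. No Dox library overlapped those of 0 h, and the 168 h libraries lay above all those of 96 h. The log2 difference was 0.73 ± 0.21 at 16 h (under the minimum), 2.40 ± 0.21 at 24 h (limma adjusted p = 7.68e-08) and 8.73 ± 0.21 at 168 h (adjusted p = 4.45e-17). By size of increase it ranked 4 of 15057 genes. Hs3st1 held 7.24% of the summed TPM of the 6 3-O-sulfotransferases at 0 h, 92.0% at 48 h and 98.4% at 168 h.

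Hs3st3b1 held most of the 3-O-sulfotransferase TPM before Dox. It was at 3.30, 3.46 and 2.49 TPM at 0 h, at 8.14, 8.24 and 7.94 TPM at 96 h and at 6.32, 6.79 and 5.26 TPM at 168 h. It was called at 96 h (1.17 ± 0.11, limma adjusted p = 2.92e-08) and was at 0.81 ± 0.11 at 168 h. Its close paralog Hs3st3a1, 513.0 kb away on chromosome 11, was at or below 0.0508 TPM at 0 h and at 1.95, 2.77 and 2.33 TPM at 168 h (1.70 ± 0.17, limma adjusted p = 3.95e-08). Both genes were higher in all 168 h libraries than in any 0 h library. Their coding sequences are near-identical in part, so reads may have been divided between them and both values are uncertain.

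Outside the cell, Sulf1 and Sulf2 strip 6-O-sulfates from finished chains and heparanase (Hpse) cuts them. Sulf2 was at 47.7, 45.7 and 51.7 TPM at 0 h, at 107, 106 and 105 TPM at 96 h and at 92.0, 89.7 and 128 TPM at 168 h. It did not overlap between 0 h and either later time, and the difference of 1.06 ± 0.12 at 168 h (limma adjusted p = 1.9e-07) fell under the minimum without library 3 (0.90) and with median-of-ratios rescaling (0.88). Sulf1 was at 8.37, 7.28 and 8.59 TPM at 0 h, at a mean of 4.27 TPM at 72 h and at 9.27, 10.5 and 6.87 TPM at 168 h. It was not called at any Dox time. Hpse was at 0.0914, 0.0508 and 0.152 TPM at 0 h, at 10.4, 10.5 and 12.7 TPM at 96 h and at 9.30, 10.1 and 15.4 TPM at 168 h. All later libraries lay above 0 h, with a log2 difference of 3.49 ± 0.19 at 168 h (limma adjusted p = 3.86e-12), or 3.29 ± 0.19 without library 3. Of its mean change at 168 h, 96.3% was present at 96 h.

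**Figure D2:**
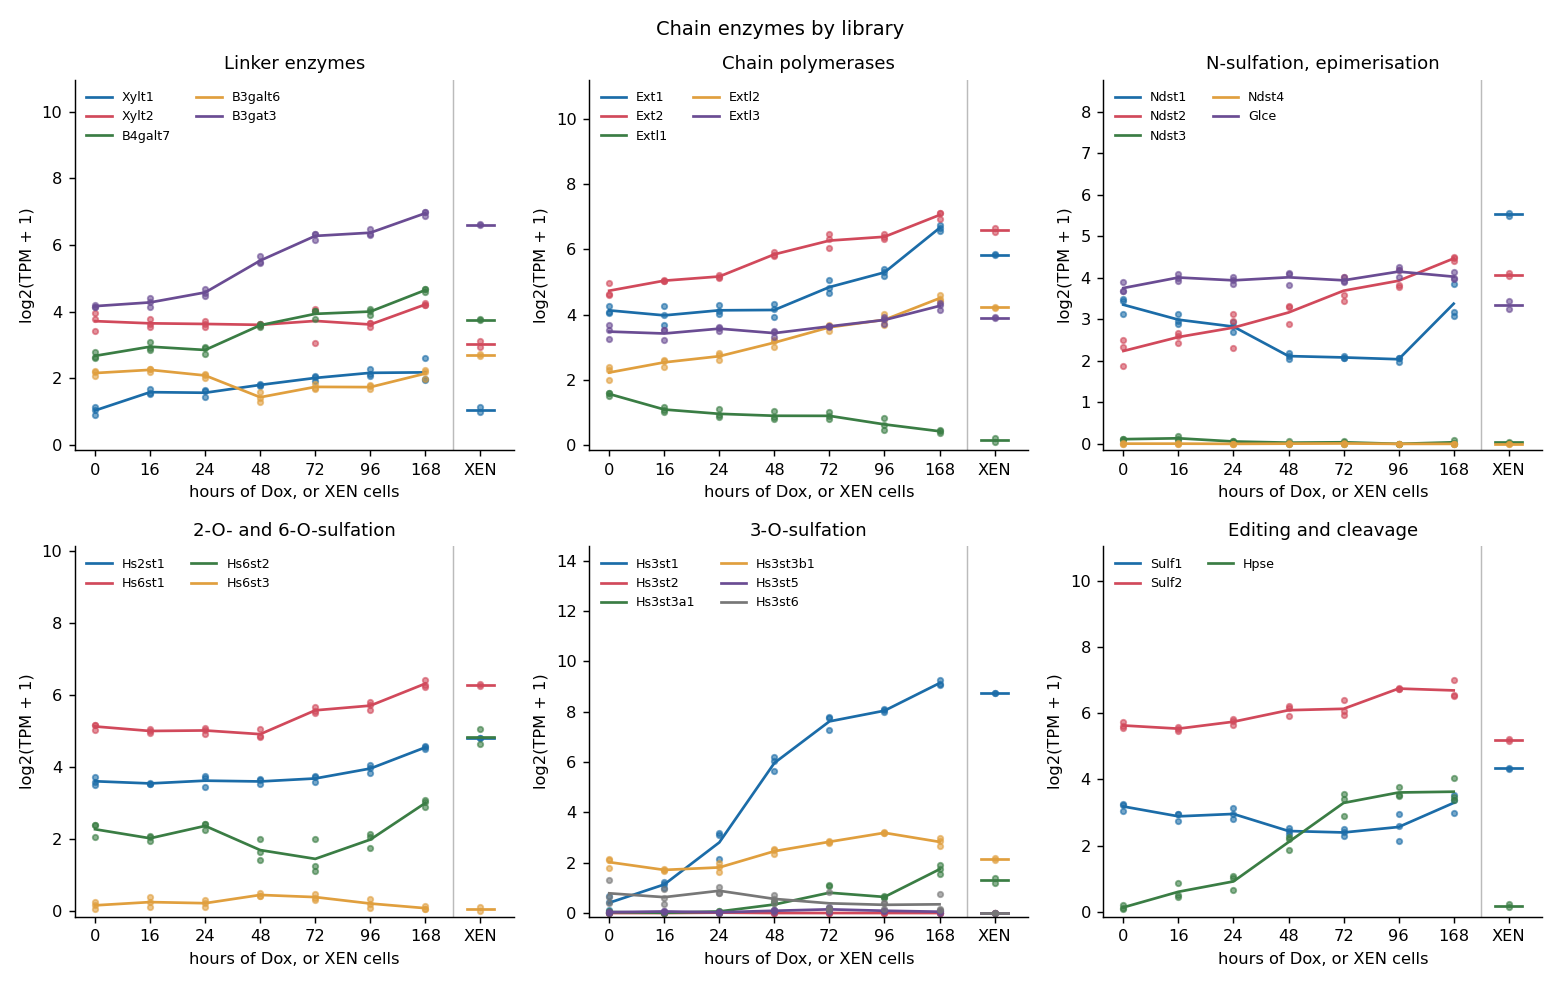
Levels of the chain enzyme genes by role, as log2(TPM + 1), at 0 to 168 h of Dox and in XEN cells. Points are libraries, lines join group means and short bars are XEN means. Hs3st1 climbs to a mean of 562 TPM, Ndst1 dips to 3.11 TPM at 96 h and stands at 45.3 TPM in XEN cells, and Hpse is near 0 at both 0 h and in XEN cells.

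XEN cells were compared with the induced cells at 168 h and with the 0 h cells, and both the 168 h and the XEN differences from 0 h use the same 0 h libraries. Against 0 h, 17 of the 32 tested genes were higher in XEN cells and 2 lower (Gpc3 and Extl1), or 59.4%, beside 37.6% of all genes, 18.9% higher and 18.7% lower. Side by side, the differences from 0 h at 168 h and in XEN cells were 8.73 and 8.34 for Hs3st1, 2.08 and 2.09 for Gpc4, 2.79 and 2.44 for B3gat3, and 1.19 and 1.15 for Hs6st1. Directly against 168 h, 3 genes were higher in XEN cells and 7 lower, or 31.2%, where 13.9% of all genes were called, 4.73% higher and 9.17% lower. The median difference was -0.39 over the 32 genes and -0.14 over all genes.

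Ndst1, Hs6st2 and Sulf1 were the genes higher in XEN cells than at 168 h. Ndst1 was at 44.1 and 46.5 TPM in the XEN libraries, above its highest 168 h value of 13.5 TPM (log2 difference 2.16 ± 0.17, limma adjusted p = 4.96e-09). Hs6st2 was at 23.9 and 32.2 TPM, where no 168 h library exceeded 7.55 TPM (1.84 ± 0.22, adjusted p = 1.52e-06). Sulf1 was at 19.5 and 18.7 TPM, also without overlap (1.04 ± 0.19, limma adjusted p = 0.000136), and this call ended with the replicate block (0.99) and without replicate 3 (0.88). All 3 were also higher than at 0 h, by 2.18 ± 0.17, 2.57 ± 0.22 and 1.15 ± 0.19. Ndst1 held 74.0% of the Ndst1 and Ndst2 sum in XEN cells and 31.0% at 168 h. For Hs6st2 in the sum of Hs6st1 and Hs6st2 the shares were 26.7% and 8.24%, and for Sulf1 in the sum of both Sulf genes 35.0% and 8.26%.

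**Figure D3:**
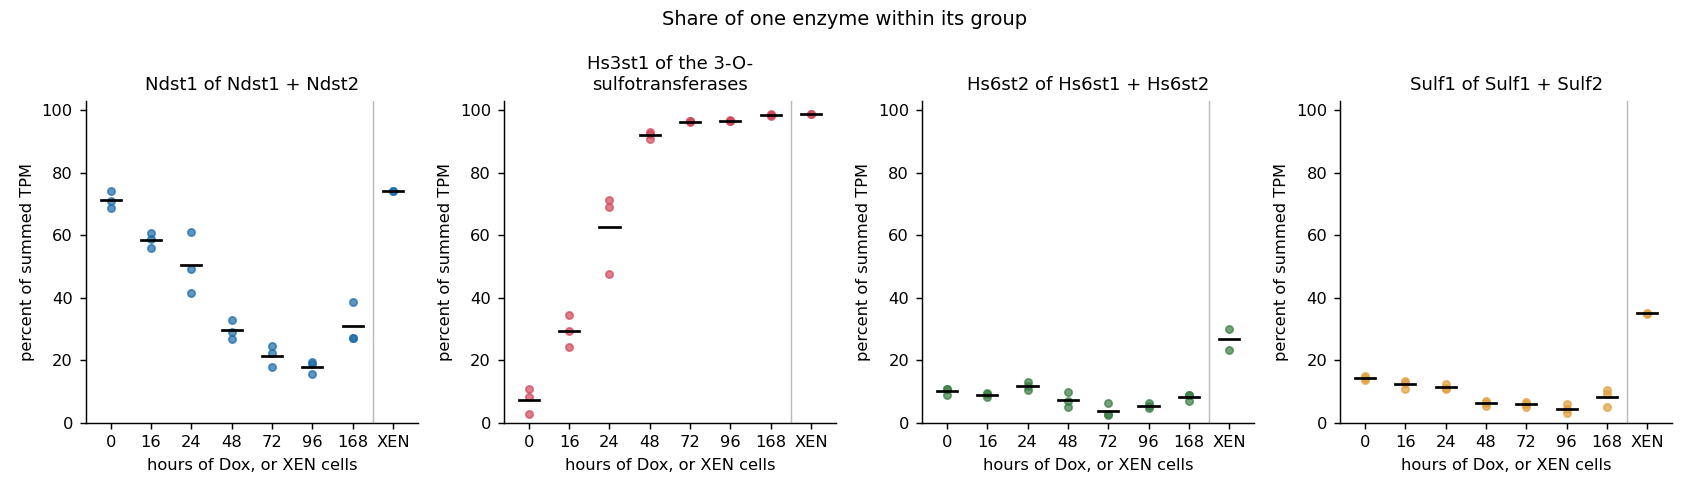
Percent of the summed TPM held by 1 gene of a pair or family, for Ndst1, Hs3st1, Hs6st2 and Sulf1, in each library at 0 to 168 h and in XEN cells, with black bars at the group means. The Ndst1 share falls from 71.3% to 18.0% at 96 h and is 74.0% in XEN cells, while the Hs3st1 share ends at 98.4% and 98.9%.

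Hpse, Gpc3, Srgn, Sdc4, Sulf2, Xylt2 and Xylt1 were lower in XEN cells than at 168 h. Hpse was at 0.111 and 0.172 TPM, near the 0 h values (-3.44 ± 0.21, limma adjusted p = 2.41e-10). Gpc3 was at 6.97 and 6.96 TPM, below every induced library and also below 0 h (-3.28 ± 0.37 against 168 h, adjusted p = 6.59e-07). The difference of Gpc3 from 0 h was -1.21 ± 0.37 (limma adjusted p = 0.00614) and was lost without replicate 1 (adjusted p = 0.12) or replicate 2 (adjusted p = 0.0765), each of which leaves 1 XEN library assumed to vary like the other groups. Gpc4, its neighbour, was at 110.3 and 112 TPM, inside the 168 h range (0.01 ± 0.29, limma adjusted p = 0.991). In the summed glypican TPM the share of Gpc3 was 32.6% at 168 h and 4.58% in XEN cells.

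Srgn was at 628 and 591 TPM in XEN cells, below all 168 h libraries and above all of 0 h (-1.81 ± 0.35 against 168 h, limma adjusted p = 0.000293). Sdc4 was at 87.2 and 90.5 TPM, likewise between the 2 groups (-1.74 ± 0.16, adjusted p = 5.4e-08). Sulf2 was at 36.3 and 34.4 TPM, below the libraries of both (-1.50 ± 0.14 against 168 h, adjusted p = 4.46e-08). Xylt2 had a mean of 7.17 TPM in XEN cells (-1.19 ± 0.21, limma adjusted p = 0.000108). Xylt1 was at 0.991 and 1.2 TPM, among the 0 h values (-1.11 ± 0.16, adjusted p = 1.06e-05), and its difference fell under the minimum without replicate 3 (-0.90) and with median-of-ratios rescaling (-0.99). Hs3st1 was at 429.6 and 428 TPM and was not called (-0.39 ± 0.24, limma adjusted p = 0.193).

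**Figure D4:**
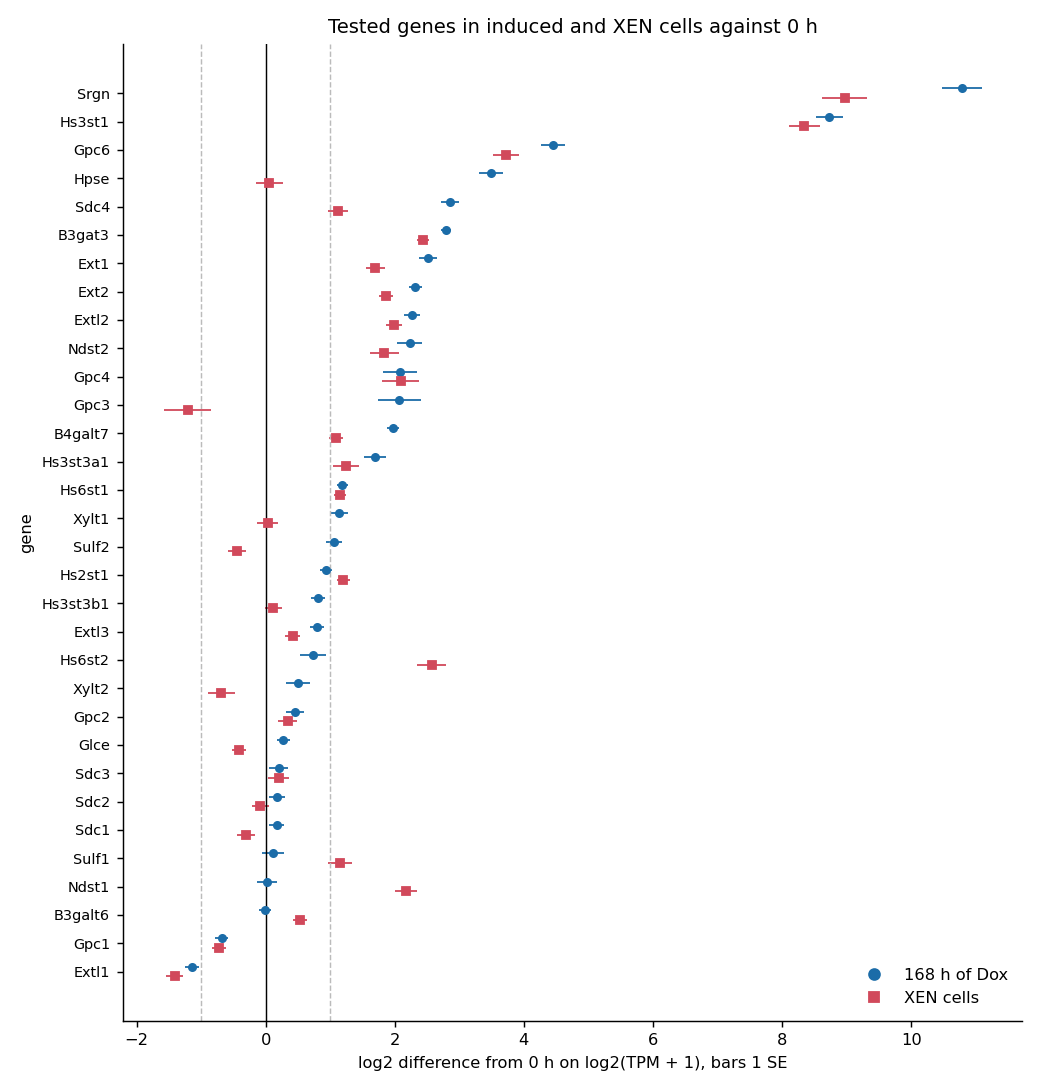
Log2 difference from 0 h (± 1 SE) of the 32 tested genes at 168 h of Dox (blue circles) and in XEN cells (red squares), with dashed lines at the minimum of 1 in each direction. Hs3st1 lies at 8.73 and 8.34, Hpse at 3.49 and 0.06, Gpc3 at 2.07 and -1.21, and Ndst1 at 0.02 and 2.18. Both series share the 0 h libraries.

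The siRNA experiment asked what the loss of Oct4 during the first 48 h of Dox does to these genes. Pou5f1 itself had a lowest, median and highest value of 782, 895 and 1194 TPM in siCTL and of 282, 314 and 387 TPM in siOct4 libraries, a log2 difference of -1.52 (exact permutation p = 0.00216, two-sided, the smallest that 6 against 6 can give). Of the 22 genes, 2 were lower at a log2 minimum of 0.5, where 2.67% of the 6264 genes tested were called, 0.942% higher and 1.72% lower. The median difference was -0.10 over the 22 genes and -0.12 over all tested.

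Srgn was lower in every siOct4 library than in any siCTL library. Its lowest, median and highest values were 1114, 1453 and 1777 TPM in siCTL and 367, 623 and 740.4 TPM in siOct4. The groups did not overlap, and all 6 same-numbered pairs were lower, by between 1.05 and 1.64 on the log2 scale. The difference was -1.31 ± 0.19 (limma adjusted p = 0.00169), and the exact permutation p was 0.00216, or 0.0312 over sign flips within pairs, the smallest that 6 pairs can give. Without replicate 4, whose siCTL library held unusual values of several members, it was -1.32 ± 0.20 (limma adjusted p = 0.00643). Runx1, the blood marker listed in that table, was also lower, with a mean of 45.0 TPM in siCTL and 19.2 TPM in siOct4.

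Sdc4 had lowest, median and highest values of 132, 157 and 185 TPM in siCTL and of 77.8, 112 and 126 TPM in siOct4. The groups did not overlap, and all 6 pairs were lower, by between 0.30 and 0.75 on the log2 scale. The difference was -0.58 ± 0.14 (limma adjusted p = 0.0396, exact permutation p = 0.00216, or 0.0312 within pairs). It lost its call without replicate 1, 2, 4, 5 or 6 (limma adjusted p between 0.10 and 0.159) and held without replicate 3 (adjusted p = 0.0254). Pairing the libraries by number (replicate block) gave limma adjusted p-values of 0.00527 for Sdc4 and 2.25e-05 for Srgn. With median-of-ratios rescaling, which moved the median of all genes from -0.12 to 0.01, neither gene was called: Srgn was at -1.16 (limma adjusted p = 0.0523) and Sdc4 at -0.43 (adjusted p = 0.0673). With the fibroblast score in the model the differences were -1.34 and -0.55, and both calls held. Both were also lost when consecutive libraries, which resembled each other, were averaged (limma adjusted p = 0.105 and 0.388). In that setting 0 of all genes tested were called, so it could not set these genes apart from the rest. The exact permutation p-values treat the libraries, or the pairs, as independent, and would be larger if consecutive libraries were not.

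None of the other 20 genes listed was called without or with the replicate block, and their siCTL and siOct4 libraries overlapped. Hs3st1, the other early responder, differed by 0.03 ± 0.26 (limma adjusted p = 0.969), with values between 45.8 and 85.1 TPM in siCTL and between 30.0 and 102 TPM in siOct4. Sdc3 (-0.66 ± 0.31, adjusted p = 0.363) and Xylt1 (-0.59 ± 0.29, adjusted p = 0.385) were past the minimum but not the limma test. Ext2 was at -0.46 ± 0.20 (limma adjusted p = 0.311) and was the 1 gene of the 20 with an unadjusted p under 0.05. Ndst1 was at 0.30 ± 0.35 (limma adjusted p = 0.776). Xylt1, B4galt7, Ext2 and Hpse were lower in all 6 same-numbered pairs, with limma adjusted p-values under the block of 0.0874, 0.231, 0.0633 and 0.219. The share of all 6264 genes that were lower in all 6 pairs, or did not overlap, was not counted. Their median difference was -0.12, so lower pairs are not particular to these members. With the block and the fibroblast score together, a setting chosen after the data were seen, Hs6st2 was called higher (0.64 ± 0.16, limma adjusted p = 0.0167), where the block alone gave 0.42 ± 0.42 (adjusted p = 0.575).

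**Figure D5:**
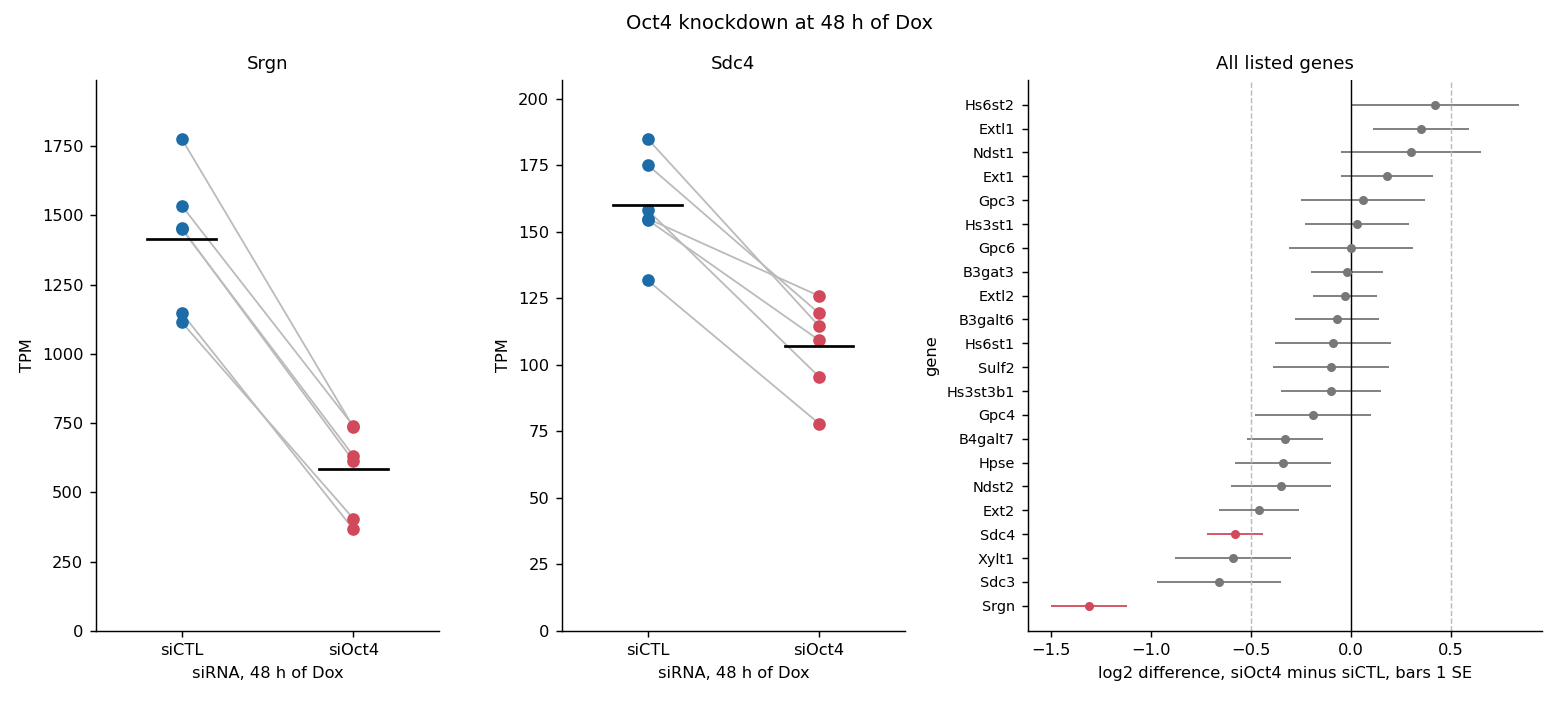
Srgn and Sdc4 in TPM in each siCTL and siOct4 library at 48 h of Dox, joined by replicate number with bars at the means, and the log2 difference (± 1 SE) of the 22 listed genes, with called genes in red and dashed lines at 0.5 in each direction. Every line for Srgn and Sdc4 slopes down, and the differences are -1.31 and -0.58.

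Genes that act beside heparan sulfate synthesis also moved at 168 h, when 22.6% of all genes were called higher and 16.5% lower. Of the other proteoglycan core proteins, 4 of 8 tested were called higher (Spock1, Tgfbr3, Hspg2 and Nrp1) and 1 lower. Hspg2 was also called higher at every earlier Dox time and in XEN cells against 0 h. Spock1, a testican, had a mean of 0.0542 TPM at 0 h and 109 TPM at 168 h (6.70 ± 0.34, limma adjusted p = 1.1e-12), and Tgfbr3, the betaglycan co-receptor of TGF-beta, 0.623 and 47.6 TPM (4.90 ± 0.19, adjusted p = 2.06e-14). Col18a1, a basement membrane collagen with heparan sulfate chains, was the 1 gene called lower, from 140.2 to 4.02 TPM (-4.81 ± 0.10, limma adjusted p = 2.88e-18), and was added after its value was seen. Of the chondroitin and dermatan sulfate enzymes, which use the same linker, 11 of 15 were called higher, including Chst15 (6.46 ± 0.30) and Chpf2 (3.76 ± 0.24). A list of 9 genes, most of which supply sulfate donor or sugar nucleotides, had 6 called higher. Among these were Papss2 (2.47 ± 0.14), Papss1 (2.13 ± 0.13) and Slc35b3 (2.13 ± 0.17), the latter pair alike in size. The list also held Fam20b, called higher, and Pxylp1, not called, which act on the linker instead. Of the lysosomal enzymes that degrade heparan sulfate, 6 of 7 were called higher, including Naglu (2.60 ± 0.32). No gene of these 4 lists was called lower except Col18a1.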

How the data were processed

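RNA-seq libraries were polyA-selected, stranded and paired-end. Per the labels and methods, the authors aligned reads to mm10 with STAR and deposited gene-level TPM values made with RSEM, after leaving out libraries that stood apart in a principal component analysis. Tool versions are not given in the sources used here. TPM keeps no depth, so no counting intervals could be given. The tables read were: 23 induction libraries (44853 genes) and 12 siRNA libraries (6275 genes). Class labels and mean columns that the authors added to the siRNA table were not used, and every library column matched a sample.

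Genes whose group mean reached 1 TPM in any group (15057 and 6264) were analysed as log2(TPM + 1) with limma 3.58.1 (R 4.3.3, trended and robust empirical Bayes, all groups of a table in one model). Adjusted p-values are Benjamini-Hochberg over all genes tested. A call needed an adjusted p under 0.05 and a log2 difference over 1 (induction) or 0.5 (siRNA). Fold changes on this scale understate changes of low genes. Single siRNA values were also tested by exact permutation, two-sided, over free reassignments, which ignore pairing, and over sign flips within pairs. Replicates were separate inductions or transfections as far as the methods state it.

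Same-numbered siCTL and siOct4 libraries deviated together (mean correlation 0.33, from 0.24 to 0.71, against -0.06 for other numbers), so the numbers were taken to pair the siRNA libraries, and blocked values are given beside the siRNA results.

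Members and related lists were chosen with earlier results of these data known. Library values are given for members called at a Dox time, in XEN cells against 0 h or under siOct4 that reached a group mean of 5 TPM. Hs2st1, called only in XEN cells against 0 h, is given by group means. Xylt1, Extl1 and Hs3st3a1, with group means below 5 TPM, were added because they were called. Of each related list the 2 genes with the largest absolute log2 difference among those called at 168 h are named, except 1 gene that is not reported here. On simulated data, limma recovered 96.5% of 200 genes changed by log2 2 among 15057 in the 168 h comparison, and 59% of 200 genes changed by log2 1 among 6264 in the siRNA comparison. False calls numbered 1 and 6. The simulated libraries were drawn independently, without the likeness seen between consecutive or same-numbered siRNA libraries, so the siRNA rate may differ from that of the real data.

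The alternatives tried were rescaling by median-of-ratios size factors, dropping the filter or raising it to 5 TPM, a smaller pseudocount (0.1), dropping the fold change minimum, a replicate block, a model of the compared groups alone, and leaving out each replicate. Averaged consecutive siRNA libraries, a fibroblast score as covariate (also with the block), and 168 h without library 3 were added after the data were seen. Positions and windows are from GRCm38.p6 (mm10), and promoter sequences from RefSeq.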

Additional observations from a re-analysis of the deposited data

Results flagged for a closer look

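The lowest and highest siRNA library of each group were compared with the rest for the 22 listed genes, and 5 of 44 groups had a library far from the other 5, where chance gives about 1 in 20, or 2.2 of 44. On the log2(TPM + 1) scale, 4 of these values lay in siCTL library 4. Sdc3 stood at 4.41 there, against 2.69 to 3.30 in the others. B3gat3 was at 5.01 (others 4.34 to 4.45), Ext1 at 5.69 (4.76 to 5.08) and Ndst2 at 4.21 (2.97 to 3.38). Xylt1 was at 0.87 in siCTL library 3, below 1.99 to 2.44 in the others. None of these 5 genes was called under siOct4.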

How the results depend on the processing

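Members called under alternative settings changed in number most without the fold change minimum, which gave 8 members at 16 h, 15 after 24 h, 23 after 48 h, 26 after 72 h, 29 after 96 h, 21 for XEN cells against 168 h and 24 for 168 h against 96 h. In the same order, that setting called 1949, 4293, 8093, 9873, 10138, 7525 and 6432 of all 15057 genes tested. A pseudocount of 0.1 gave 4 at 16 h and 16 at 48 h, beside 674 and 3459 of all genes. Under siOct4, 0 members were called with averaged consecutive libraries, where 0 of all genes tested were called. With median-of-ratios rescaling 0 members and 297 of all genes were called. Leaving out each replicate number gave 1 to 2 members at 16 h, 3 to 4 after 24 h, 8 to 10 after 48 h, 13 to 14 after 72 h and 18 after 96 h. In the same order, 350 to 433, 700 to 1073, 2301 to 2653, 3767 to 4323 and 4400 to 4527 of all genes were called. It gave 16 to 18 members after 168 h, 5 to 7 for 168 h against 96 h and 1 to 2 under siOct4. Beside these, 5809 to 5954, 1067 to 1253 and 66 to 240 of all genes were called. XEN cells keep both libraries only without replicate 3. There, 19 members were called against 0 h and 8 against 168 h, beside 5726 and 2090 of all genes. Members with a lasting onset numbered 17, and 14 to 18 when each replicate number was left out. Induction libraries with the same number did not deviate together (mean correlation 0.03). A replicate block gave 18 members at 168 h, 19 for XEN cells against 0 h and 9 against 168 h, where Sulf1 was lost, and 2 under siOct4. In the same order, the block called 5888, 5652, 2128 and 537 of all genes. Of 1030 alternative values of the 101 single-gene calls, 998 kept direction and call, 32 kept direction only and 0 reversed. The values without the fold change minimum repeat the main fit, so these could only keep the call. The causes of the lost calls were not tested. Depth was unknown, so the precision of low values could not be given.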
